A study of Mus musculus with 12 samples.

Results

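The comparison described here set c-Kit(+) cells of infarcted mouse hearts given Sfrp2 against the same kind of cells from hearts given vehicle, both isolated 12 days after myocardial infarction (MI). It used 6 of the 12 libraries of the study, 3 per group, chosen by their labels alone. All 6 came from C57BL/6 c-KitCreERT2/mTeG mice, in which a tamoxifen-inducible Cre expressed from c-Kit marks cells with eGFP. The mice were 8 weeks old when they began tamoxifen at 0.5 mg a day for 14 days, so controls and treated animals alike carried the Cre and the reporter, received tamoxifen and underwent MI. The groups differed in what was given 2 days after MI, vehicle or Sfrp2. The labels do not say how many animals a library holds or whether libraries came from separate animals, so the p-values below measure the spread between libraries, which may be partly technical. Column names of the deposited table give day 14 for libraries that the labels place at day 12, and the labels were followed.

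Wnt ligands bind Frizzled receptors and the co-receptors Lrp5 and Lrp6. In the canonical branch this protects β-catenin from a destruction complex and lets it act with Tcf and Lef factors on target genes, of which Axin2 is the most widely used readout. Secreted Frizzled-related proteins such as Sfrp2 bind Wnt ligands outside the cell. In the heart, Wnt signalling is known to affect progenitor cells, scar formation and repair after infarction. The study's title places Wnt inhibition and c-Kit(+) cells in cardiac regeneration, so cardiomyocyte genes, Wnt pathway genes and markers of other heart cells are described in turn.

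The 6 libraries differed in composition more within the vehicle group than between the groups. Whole reads could be recovered from the deposited normalized counts, which are reads per gene divided by a size factor for each library. Recovered reads numbered 2683841, 1159703 and 1889988 in Sfrp2 replicates 1 to 3 and 1075443, 2349774 and 200641 in vehicle replicates 1 to 3. Mitochondrial rRNA genes held 52.9% to 79.1% of the reads in 5 libraries and 2.01% in vehicle replicate 3. A set of 9 predicted genes with very high counts held 39.8% of the reads of vehicle replicate 3 and 1.14% of those of vehicle replicate 2, with 3.61% to 19.3% in the other libraries. Outside mitochondrial and these predicted genes, 112976 to 372312 reads remained per library. Of the 15223 listed genes, 15.2% were at 0 in vehicle replicate 2 and 10.5% in vehicle replicate 3, against 0.191% to 1.66% in the other 4 libraries. Olfactory, vomeronasal and taste receptor genes, which heart cells are not known to use, gave a level of background. The 99 listed ones had reached 10 reads in 1 library. They were thus kept for having reads, and the level may be too high. The 95th percentile of their values per exon kb was 1.60 to 2.48 in the Sfrp2 libraries, and 2.39, 0.541 and 17.9 in vehicle replicates 1 to 3. Xist, the RNA of the inactive X chromosome of females, had normalized counts of 5657, 28.9 and 15.9 in the Sfrp2 libraries and 530, 8088 and 39.3 in the vehicle libraries. Kdm5d, a Y-linked gene, was at 0, 5.65 and 8.99 with Sfrp2 and at 0 in all 3 vehicle libraries. The libraries of each group therefore differed in Xist, with high values in Sfrp2 replicate 1 and vehicle replicates 1 and 2. Vehicle replicates 2 and 3 stand apart from the other 4 libraries in genes at 0, background level and the share of the predicted genes. They do not in every measure. Over the tested genes, the Spearman correlation of Sfrp2 replicate 1 was 0.667 with vehicle replicate 2 and 0.397 with Sfrp2 replicate 2. List medians and genes that turn on vehicle replicate 2 or 3 are given without it too.

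**Figure D1:**
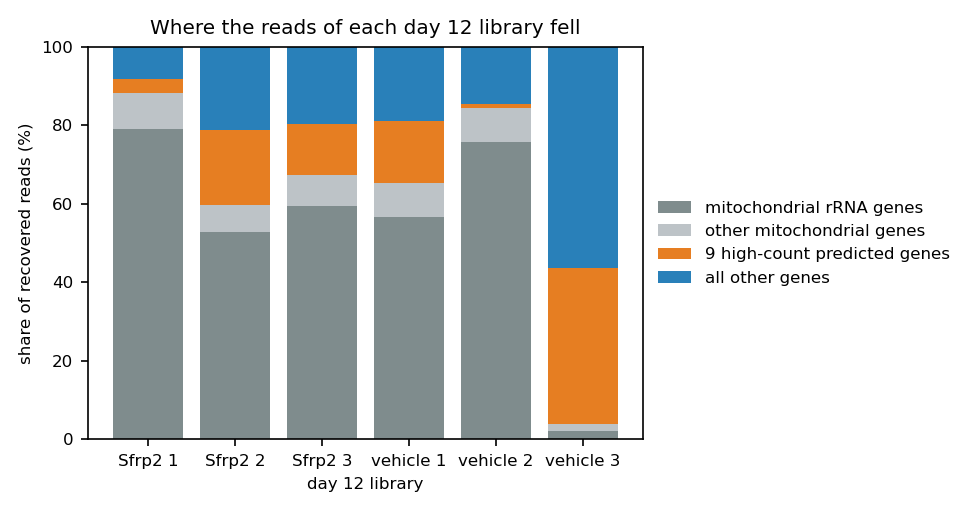
Stacked bars give the share of recovered reads (%) in each of the 6 day 12 libraries that fell on mitochondrial rRNA genes, other mitochondrial genes, 9 high-count predicted genes and all other genes. Vehicle replicate 3 had 2.01% of reads on mitochondrial rRNA genes, against 52.9% to 79.1% in the other libraries.

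No gene passed the test between Sfrp2 and vehicle at day 12. The test covered 5261 genes with a mean normalized count of at least 10 over the 6 libraries, and limma on log2(value + 1) called 0 of them at a Benjamini-Hochberg adjusted p under 0.05 (0% of genes tested). The smallest limma adjusted p was 0.999. At an unadjusted p under 0.05 there were 45 genes, 4 higher and 41 lower with Sfrp2, where 263 would be expected from evenly spread p-values. The edgeR quasi-likelihood test and DESeq2 on the recovered reads also called 0 genes, with 70 and 212 at an unadjusted p under 0.05. Of the 5261 genes, 2612 had higher and 2649 lower means of log2 values with Sfrp2, and the median log2 difference was -0.0058. Another scaling of the libraries by TMM factors moved that median to 0.14, so small differences depend on the scaling.

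The spread within each group set what could be seen. The median standard deviation of log2(value + 1) was 0.369 among the Sfrp2 libraries and 0.971 among the vehicle libraries (n = 3 each), and it was larger in the vehicle group for 4593 genes (87.3%). The ratio of the medians was 2.63, and it was 1.64 without vehicle replicate 2 and 2.05 without vehicle replicate 3. The median half-width of the 95% interval on a gene's log2 difference was 1.40. The interval lay within 1 log2 unit of 0 for 55 genes and within 2 log2 units for 3087 (58.7%), so for nearly all genes the interval reached past a 2-fold change on at least 1 side. Log2 differences of more than 1 in size were found for 451 genes, 190 higher and 261 lower, none passing the test. Between single libraries, the median absolute log2 difference over the tested genes was 0.333 for Sfrp2 replicates 2 and 3, 0.316 for Sfrp2 replicate 3 and vehicle replicate 1, and 1.61 for vehicle replicates 2 and 3. Vehicle replicate 1 was thus about as close to these Sfrp2 libraries as they were to each other. Vehicle replicate 3 held the highest of the 6 values for 40.8% of the genes and vehicle replicate 2 for 30.5%.

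**Figure D2:**
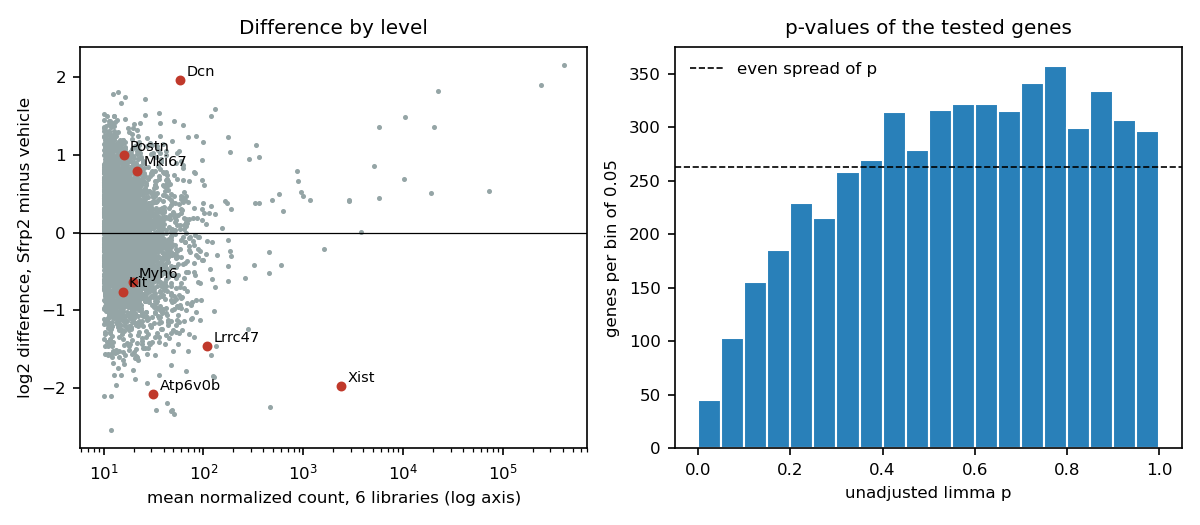
The left panel plots the log2 difference, Sfrp2 minus vehicle, of each of the 5261 tested genes against its mean normalized count on a log axis, with 8 genes named. The right panel counts genes by unadjusted limma p in bins of 0.05, with a dashed line at an even spread of 263 genes per bin, and the lowest bin held 45 genes.

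Kit, the receptor that names the isolated cells, was low in all 6 libraries. Its normalized counts were 6.34, 13.8 and 11.9 with Sfrp2 and 19.5, 8.52 and 33.7 with vehicle. Vehicle replicates 1 and 3 lay above every Sfrp2 library and vehicle replicate 2 lay among them. The log2 difference was -0.76 (95% interval -2.11 to 0.59; limma adjusted p = 0.999; exact 2-sided permutation p = 0.3), and it was -1.25 without vehicle replicate 2 and -0.32 without vehicle replicate 3. Per exon kb, Kit lay above that background level in 1 library, vehicle replicate 2. In the other 5 libraries the defining marker of the labelled cells was therefore under the upper level of the listed sensory receptor genes. Those genes were kept for having reads, so a value under their level does not show that Kit was absent. Kit was not alone in this. Of the 5261 genes tested, 86 lay above that level in all 6 libraries, with 0 from the sarcomere or endothelial lists.

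Axin2, the target gene that reports canonical Wnt activity, had 4.23, 12.6 and 6.95 normalized counts with Sfrp2 and 3.89, 1.22 and 1.87 with vehicle. Every Sfrp2 library lay above every vehicle library, although Sfrp2 replicate 1 and vehicle replicate 1 were close. These are 6, 20 and 17 reads against 5, 2 and 1. The log2 difference was 1.39 (95% interval -0.09 to 2.88; exact 2-sided permutation p = 0.1, the smallest that 3 against 3 libraries allow). The mean of Axin2 was under 10, so it was fitted among all 15223 listed genes, where its limma adjusted p was 1.00. Its value per exon kb exceeded the sensory receptor background in 0 of 6 libraries, and the difference was 0.75 without vehicle replicates 2 and 3.

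Sfrp2 itself had 8.45, 6.91 and 11.04 normalized counts in the Sfrp2 group and 3.11, 19.5 and 3.74 in the vehicle group. The groups overlapped, with the highest value in vehicle replicate 2. The agent was given to the animals, so this RNA reports the cells' own gene and does not check the labels. Bmp1, a procollagen C-proteinase, had 3.52, 8.16 and 4.91 with Sfrp2 and 7.01, 10.96 and 5.61 with vehicle, also overlapping.

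Cardiomyocyte genes did not separate the groups. Myh6, which encodes the α-myosin heavy chain of heart muscle, had normalized counts of 15.5, 12.6 and 15.5 with Sfrp2 and 21.0, 38.4 and 14.96 with vehicle. Its log2 difference was -0.63 (95% interval -1.72 to 0.45; limma adjusted p = 0.999; exact permutation p = 0.3). Vehicle replicate 3 lay among the Sfrp2 libraries, and without it the Sfrp2 libraries all lay under the vehicle libraries, with a difference of -0.93. Tnnt2, cardiac troponin T, had 59.9, 18.8 and 17.6 with Sfrp2 and 35.8, 127 and 24.3 with vehicle (-0.80, 95% interval -2.54 to 0.93, and -0.11 without vehicle replicate 2). Actc1, cardiac actin, had 82.4, 20.1 and 39.2 with Sfrp2 and 45.9, 142 and 5.61 with vehicle. For both genes Sfrp2 replicate 1 and vehicle replicate 2 held the 2 highest values, and the range from lowest to highest in each group was wider than the distance between the means. Myl3, a myosin light chain, had its 2 highest values in the same libraries, with 35.9, 6.28 and 14.7 against 18.7, 62.1 and 16.8.

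**Figure D3:**
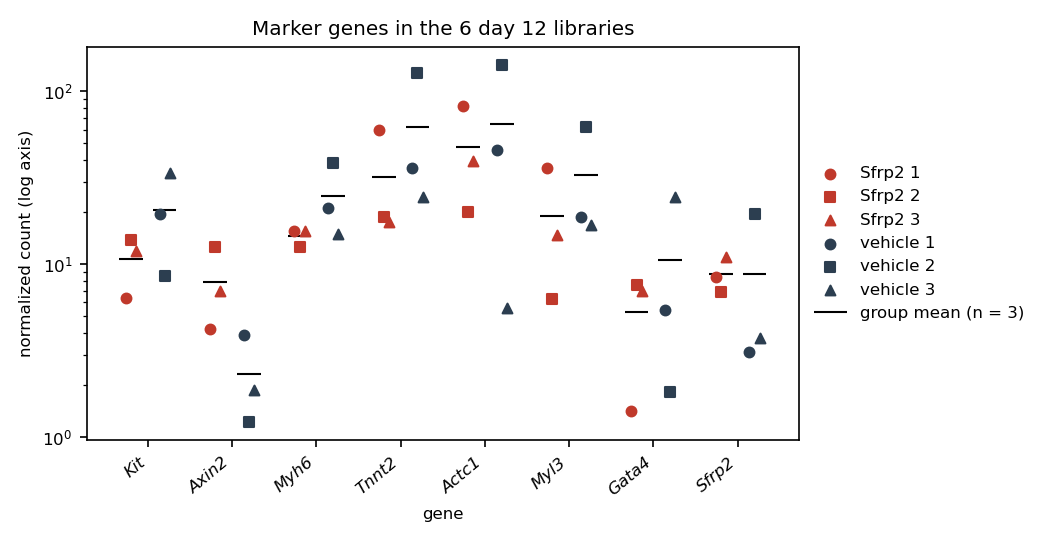
Points give the normalized count (log axis) of 8 marker genes in each Sfrp2 library (red) and vehicle library (dark blue), and black lines give group means (n = 3). Axin2 is the one gene shown whose groups did not overlap, and Kit ranged from 6.34 to 33.7.

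Across the sarcomere list, 18 of 22 genes were tested, 10 had higher and 8 lower means with Sfrp2, and 0 passed the test. The groups of 0 genes were free of overlap. Over all genes tested, 2.03% were higher and 4.14% lower without overlap, so 0 of 18 says little about sarcomere genes. The median log2 difference of these genes was 0.14, beside -0.0058 for all genes tested, and it was -0.13 without vehicle replicate 2 and -0.38 without vehicle replicate 3. Of the cardiac stress list 4 of 7 genes were tested, 3 higher and 1 lower, with a median of 0.24 and 0 called. That median was -0.33 without vehicle replicate 2 and 0.59 without vehicle replicate 3. Xirp2 of that list, an actin-binding protein of the intercalated disc, was nearly even, with 29.6, 28.2 and 30.3 against 30.4, 30.4 and 29.9 (-0.04, 95% interval -0.94 to 0.85). Genes of cardiomyocyte calcium handling (4 tested) and energy supply (5 tested) had medians of 0.19 and 0.10, with 0 called. Without vehicle replicate 2 the calcium handling median was -0.15, and without vehicle replicate 3 the energy supply median was -0.24. Of the 6 tested cardiac transcription factors, 2 were higher and 4 lower. Tbx5, a T-box factor of the heart, was lower without overlap at 4.93, 10.7 and 7.36 against 11.7, 10.96 and 14.96, a log2 difference of -0.69 (95% interval -1.87 to 0.50). The distance between the highest Sfrp2 and the lowest vehicle library was small beside the spread. Tbx5 averaged under 10 with Sfrp2 and reached the mean of 10 through the vehicle group, so its direction follows from the filter. Mef2d, a MADS-box factor, had 30.3, 15.1 and 10.2 against 14.8, 36.5 and 123, with the groups overlapping, and its difference of -1.24 was -0.45 without vehicle replicate 3. Gata4, a zinc-finger factor of cardiac development, was under the mean of 10, with 1.41, 7.53 and 6.95 against 5.45, 1.83 and 24.3.

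Genes of the Wnt pathway likewise gave no call at any step. Among ligands, 2 of 19 genes reached the mean of 10. Wnt4 had 3.52, 4.39 and 3.68 with Sfrp2 and 6.23, 3.04 and 108 with vehicle, and it reached that mean through vehicle replicate 3 alone, so the direction of its difference follows from the filter. The ligand median was -0.81 for the 2 tested genes, 0.014 without vehicle replicate 3, and 0.27 over all listed ligands with no filter. With no filter the median over all 15223 listed genes was 0.22. Among receptors, 3 of 17 were tested and all 3 were lower, with a median of -0.45 that was -1.41 without vehicle replicate 2, -0.014 without vehicle replicate 3 and -0.082 with no filter. The co-receptor gene Lrp5 had 55.6, 89.1 and 45.0 against 114, 37.7 and 424, again with the highest value in vehicle replicate 3, and its difference was -0.11 without that library. Of 11 secreted inhibitors 2 were tested, 1 higher and 1 lower.

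Inside the cell, 8 of 15 genes of the Wnt pathway were tested, 4 higher and 4 lower, with a median of 0.11 that was -0.21 without vehicle replicate 3. Dvl2, a Dishevelled protein that passes the signal on from Frizzled, had 14.1, 14.4 and 13.5 normalized counts with Sfrp2 and 9.34, 12.8 and 5.61 with vehicle. The Sfrp2 libraries were tightly grouped and all above the vehicle libraries, with a log2 difference of 0.61 (95% interval -0.46 to 1.68; limma adjusted p = 0.999) that was 0.33 without vehicle replicate 3. Tcf7l2, a transcription factor that partners β-catenin, had 16.9, 25.7 and 19.2 against 22.6, 44.4 and 65.4 (-0.96, 95% interval -2.14 to 0.22), and the groups overlapped. Of 13 canonical target genes 5 were tested, 4 higher and 1 lower, with a median log2 difference of 0.24. This median was -0.34 without vehicle replicate 2 and -0.21 without Sfrp2 replicate 1, so its direction turned on single libraries. With no filter it was 0.54, beside 0.22 over all listed genes. Tcf7, both a target and a transcription factor of the pathway, had 54.9, 4.39 and 6.13 against 8.57, 17.0 and 1.87, and its higher mean rested on Sfrp2 replicate 1.

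Genes whose groups did not overlap were counted as a description. Among the 5261 tested genes, 107 (2.03%) had every Sfrp2 library above every vehicle library and 218 (4.14%) every Sfrp2 library below. Each such gene has an exact 2-sided permutation p of 0.1, the smallest possible, so many would arise with no difference between the groups. Members of the gene lists without overlap are to be read beside these shares. In 129 of these 218 lower genes (59.2%) vehicle replicate 3 held the highest vehicle value. Leaving that library out gave 375 higher (7.13%) and 465 lower genes (8.84%), from comparisons of 3 against 2 libraries. With fewer libraries an absence of overlap arises more easily, so the rise is not a sign of a difference.

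Of the genes higher with Sfrp2 without overlap, 7 had a group mean of at least 30, and the 6 described here had small log2 differences, 0.23 to 0.47. Herc1, a giant HECT-domain protein, had 56.3, 55.2 and 65.0 with Sfrp2 and 42.8, 39.6 and 52.4 with vehicle (0.39, 95% interval -0.57 to 1.35). Osmr, the oncostatin M receptor, had 32.4, 33.9 and 34.3 against 28.8, 21.3 and 29.9. For Herc1 and Osmr the Sfrp2 libraries lay close together, and the nearest vehicle library lay just under them. Camk2d, the main calcium/calmodulin-dependent kinase II gene of the heart, had a difference of 0.25. The others were Ttc3 (0.47), Nbeal1 (0.43) and Anapc1 (0.23), a subunit of the anaphase-promoting complex. The limma adjusted p was 0.999 for each of the 6.

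The 10 genes named as lower without overlap had log2 differences of -1.31 to -2.08. They were the largest of 58 with a group mean of at least 30. The higher genes came from 7, so the sizes in the directions cannot be compared. Vehicle replicate 3 held the highest value of each of the 10, and 1 very high library helps a gene reach that mean and rank. Me2 and Gca reached a mean of 10 over the libraries through vehicle replicate 3, so the direction of their differences follows from the filter. Atp6v0b and Cpne1 averaged 6.99 and 9.35 with Sfrp2 and reached that mean through the vehicle group, so the same holds for them. Atp6v0b, a subunit of the vacuolar proton pump, had 4.23, 8.16 and 8.59 with Sfrp2 and 9.34, 23.7 and 135 with vehicle. Its difference was -2.08 (95% interval -4.13 to -0.03; limma adjusted p = 0.999) and -1.05 without vehicle replicate 3. Lrrc47 had 29.6, 41.4 and 31.9 against 42.0, 43.2 and 464, and its difference of -1.46 became -0.32 without vehicle replicate 3. Gca, the calcium-binding protein grancalcin, had 8.45, 10.0 and 5.31 against 10.1, 10.3 and 112, and its difference of -1.48 became -0.37. For Lrrc47 and Gca, 2 vehicle libraries lay just above the Sfrp2 libraries and 1 far above.

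Nrp2, the neuropilin that serves as a co-receptor for semaphorins and VEGF-C, was less dependent on 1 library. It had 43.0, 30.1 and 46.6 normalized counts with Sfrp2 and 63.1, 119 and 127 with vehicle. Its log2 difference was -1.31 (95% interval -2.44 to -0.18; limma adjusted p = 0.999) and -1.13 without vehicle replicate 3, and -0.67 without vehicle replicates 2 and 3. Capns1, the small calpain subunit, had 19.0, 16.9 and 23.3 against 27.3, 57.8 and 101, a difference of -1.43 that was -0.99 without vehicle replicate 3. The other 5 were Me2, a mitochondrial malic enzyme (-1.76), Cpne1, a copine (-1.50), Fam65a (-1.48), Mcmbp, which binds the MCM helicase (-1.40) and the iron transporter gene Slc11a2 (-1.34). Without vehicle replicate 3 these differences were -0.73 for Me2, -0.90 for Cpne1, -0.91 for Fam65a, -0.90 for Mcmbp and -0.70 for Slc11a2.

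**Figure D4:**
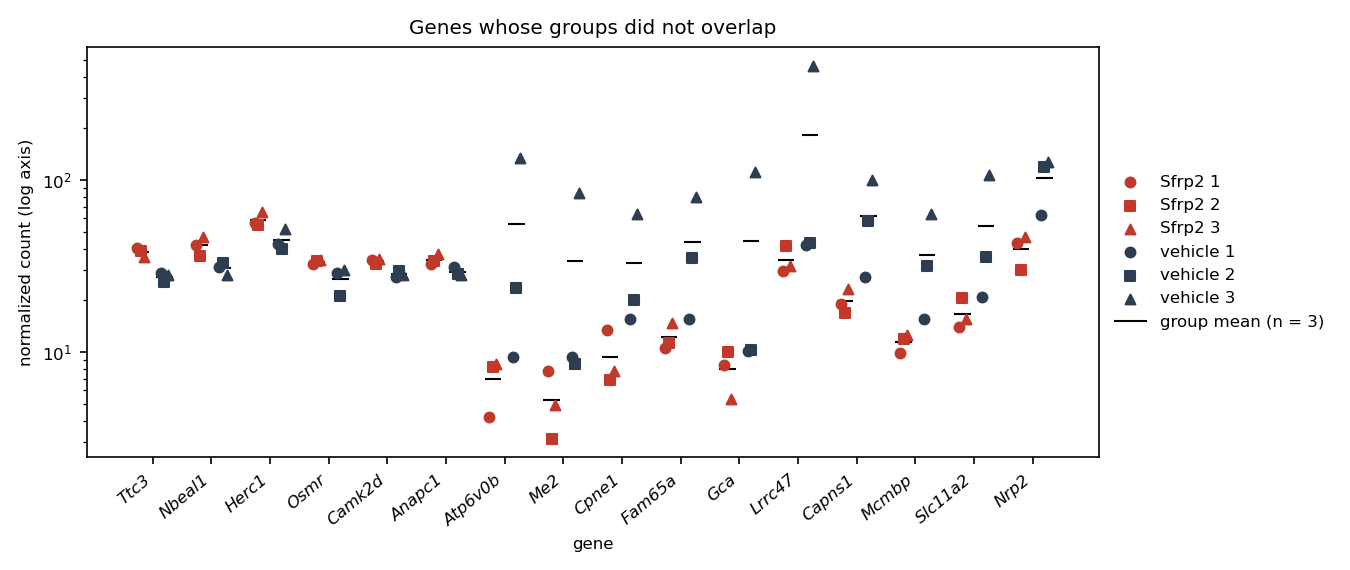
Points give the normalized count (log axis) of the 6 higher and 10 lower genes named for groups that did not overlap, by library, with group means (n = 3) as black lines. For the higher genes the points lie close together, and among the lower genes the vehicle replicate 3 triangle is the highest point, at 464 for Lrrc47.

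The 5 smallest p-values all belonged to genes lower with Sfrp2, and none passed the test (limma adjusted p = 0.999). Akap5, which anchors protein kinase A, had the smallest unadjusted limma p, 0.0126. Its normalized counts were 7.75, 12.6 and 10.2 with Sfrp2 and 20.2, 30.4 and 33.7 with vehicle, a log2 difference of -1.37 (95% interval -2.36 to -0.39), and the groups were well apart. Without vehicle replicates 2 and 3 it was -0.95. Tmem252 had 4.23, 3.14 and 6.95 against 9.34, 28.6 and 24.3 (-1.83). Pla2g7, which breaks down platelet-activating factor and is made by macrophages, had 4.23, 6.91 and 6.95 against 14.0, 12.8 and 35.5 (-1.51). The others were the kinesin gene Kif26a (-1.53) and Klra2 (-1.69), one of a family of closely similar natural killer cell receptor genes whose reads may not be told apart. Klra2 was at -1.13 without vehicle replicate 3. Tmem252, Pla2g7, Kif26a and Klra2 averaged 4.77, 6.03, 5.48 and 6.35 with Sfrp2. They reached the mean of 10 through the vehicle group, so the direction of their differences follows from the filter.

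Markers of other cell types differed more between single libraries than between the groups. In bulk RNA, fewer cells of a type and less RNA per cell cannot be told apart. The fibroblast and matrix list had 14 of 16 genes tested, 9 higher and 5 lower, with a median log2 difference of 0.60 that was 0.88 without vehicle replicate 2 and -0.23 without vehicle replicate 3. Its summed normalized count was 651 to 1009 with Sfrp2 and 729, 2780 and 226 in vehicle replicates 1 to 3. Postn, the matricellular protein periostin of activated fibroblasts, had 23.9, 16.9 and 23.3 with Sfrp2 and 14.0, 9.74 and 7.48 with vehicle, and every Sfrp2 library lay above every vehicle library. Its log2 difference was 1.00 (95% interval 0.01 to 1.99; limma p = 0.0484 before and 0.999 after adjustment over all genes tested; exact permutation p = 0.1), 0.80 without vehicle replicate 3 and 0.56 without vehicle replicates 2 and 3. Col5a1 went the other way without overlap, at 16.9, 23.2 and 21.3 against 25.7, 30.4 and 24.3, and it was picked out after its values were seen. Col5a2, a chain of the same fibrillar collagen, had 11.3, 29.5 and 23.3 against 14.8, 9.74 and 9.35. Dcn, the proteoglycan decorin, had 59.2, 63.4 and 59.3 with Sfrp2 and 25.7, 145 and 0 with vehicle, so the list's spread lay in the vehicle group.

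Only 3 of 16 cell cycle genes reached the mean of 10, and all 3 had higher means with Sfrp2. Mki67, the Ki-67 antigen of cycling cells, had 43.7, 16.9 and 22.1 with Sfrp2 and 10.9, 27.4 and 9.35 with vehicle. Top2a, the topoisomerase of dividing cells, had 38.0, 21.3 and 18.4 against 7.79, 19.5 and 16.8. Ccna2, cyclin A2, had 31.0, 11.3 and 13.1 against 7.79, 21.3 and 9.35. The highest value of each was in Sfrp2 replicate 1, the groups overlapped through vehicle replicate 2, and the limma adjusted p was 0.999 for each.

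Macrophage and monocyte genes had their highest summed count in vehicle replicate 2. Of the macrophage and monocyte list 12 of 16 genes were tested, 4 higher and 8 lower, with a median of -0.31 that was 0.48 without vehicle replicate 2 and -1.25 without vehicle replicate 3. The summed normalized count was 200 to 297 with Sfrp2 and 207, 1481 and 176 with vehicle. Itgam, the CD11b integrin, had 23.2, 30.1 and 29.0 with Sfrp2 and 31.1, 156 and 52.4 with vehicle, lower without overlap by a margin of about 1 normalized count, and its difference of -1.19 was -0.55 without vehicle replicate 2. C3ar1, the complement C3a receptor, had 10.6, 6.28 and 14.3 against 17.9, 45.1 and 16.8, and Il1b, interleukin 1β, had 4.93, 5.65 and 6.54 against 7.79, 31.7 and 7.48. Both were lower without overlap, with log2 differences of -1.20 (95% interval -2.44 to 0.05) and -1.01 (-2.65 to 0.63). Without vehicle replicate 2 these were -0.75 and -0.37. Il1b averaged 5.71 with Sfrp2 and reached the mean needed for testing through vehicle replicate 2, so the direction of its difference follows from the filter. Of all genes tested, 4.14% were lower without overlap. Neutrophil markers had 0 genes tested and mast cell markers 1, and the summed counts of these lists were 16.9 to 37.0 and 15.5 to 33.9 over the 6 libraries. Cd3e, a T cell receptor chain, stood at 87.3 in Sfrp2 replicate 1 and at 3.68 to 25.6 in the other 5 libraries.

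Endothelial and erythroid genes had the same 2 extremes. All 18 endothelial genes were tested, 6 higher and 12 lower, with a median of -0.06 that was 0.41 without vehicle replicate 2 and -0.75 without vehicle replicate 3. The summed count was 545 to 1418 with Sfrp2 and 1184, 2451 and 267 in vehicle replicates 1 to 3. Ly6c1 had 17.6, 5.65 and 17.6 against 21.0, 54.8 and 18.7, a difference of -1.13 that was -0.66 without vehicle replicate 2. It is near identical to a neighbouring family member and may share reads with it. Ly6c1 was the 1 endothelial gene of 18 lower without overlap, beside 4.14% of all genes tested. All 9 tested erythroid genes had lower means with Sfrp2, with a median of -0.41, yet the summed count was 14881 in vehicle replicate 2 and 97.2 in vehicle replicate 3, with 482 to 1139 among the Sfrp2 libraries. Without vehicle replicate 2 the erythroid median was 1.19 and without vehicle replicate 3 it was -2.20. Alas2, which starts haem synthesis in red cells, had 12.7, 12.6 and 17.6 against 28.0, 164 and 1.87. The part of red cell, myeloid and endothelial RNA in the differences of other genes was not tested.

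All 8 tested mitochondrially encoded mRNAs had higher means with Sfrp2, with a median log2 difference of 1.28 that was -0.16 without vehicle replicate 3. Their summed normalized count was 49155 to 171505 with Sfrp2 and 71725, 123172 and 6694 in vehicle replicates 1 to 3, so the lower vehicle mean lay in 1 library. Across the 31 lists with a tested gene, the median changed sign between leaving out vehicle replicate 2 and leaving out vehicle replicate 3 in 24.

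**Figure D5:**
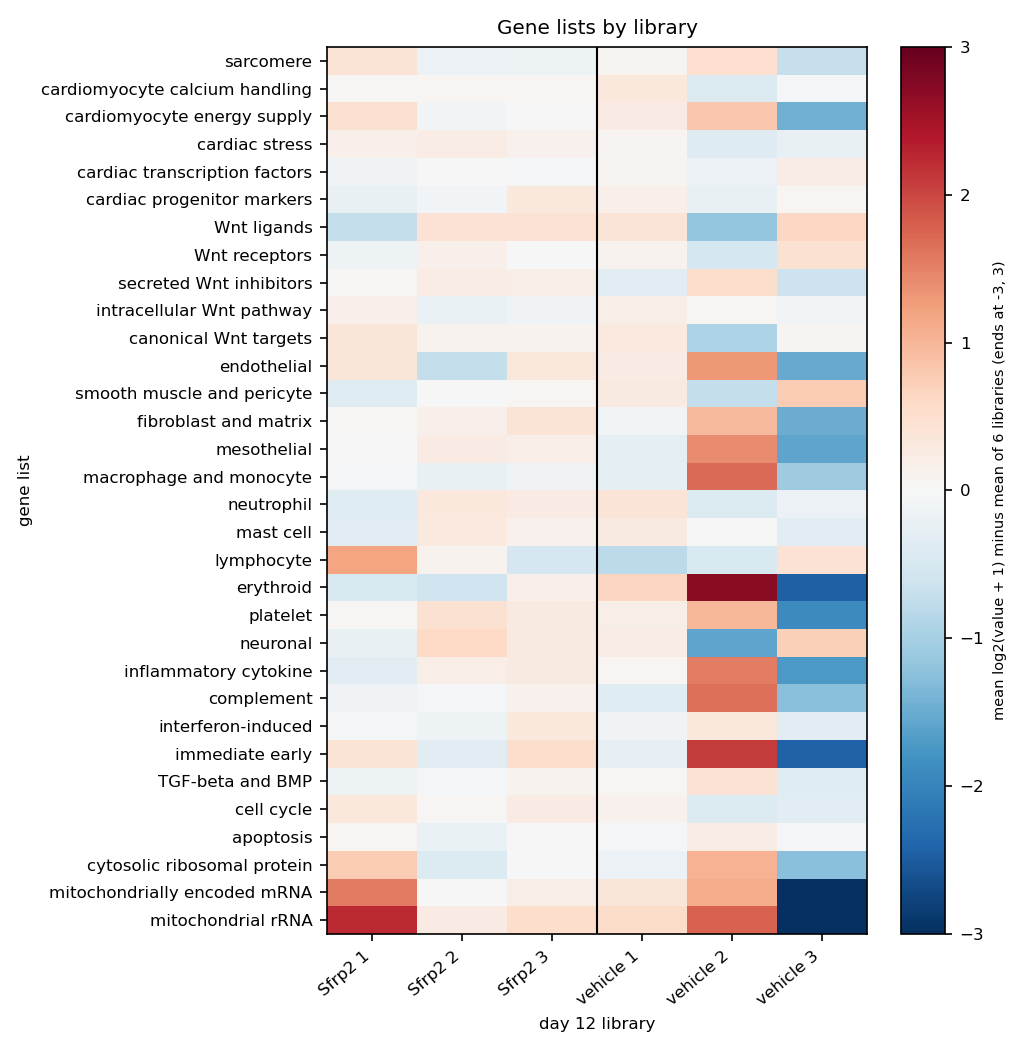
Colours give the mean log2(value + 1) of each gene list in each library minus the mean of the 6 libraries, red above and blue below, with colours ending at -3 and 3. Vehicle replicates 2 and 3 lie on opposite sides for most lists, among them erythroid genes with summed counts of 14881 and 97.2.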

How the data were processed

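RNA of c-Kit(+) cells was measured in 6 libraries, 3 per group. Per the labels' protocols, a whole-transcriptome kit made amplified cDNA. Trim Galore and Cutadapt trimmed the reads to a minimum of 20 nt, STAR placed them on GRCm38, uniquely mapped reads were counted by HTSeq, and genes that reached 10 reads in 1 library stayed. The sources used here give neither versions nor the strand setting, so overlapping and antisense genes are uncertain. The authors deposited a signal per gene and library, counts divided by DESeq2 size factors, for 15223 genes. Their fold changes and p-values were not used.

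Dividing each library by the value of 1 read gave whole reads for 100% of values (tolerance 0.001). The totals cover listed genes, and reads of amplified cDNA counted without molecular identifiers are not counts of molecules. The main test was limma 3.58.1 (R 4.3.3) with trended variance on log2(value + 1), for genes averaging 10 or more, at a threshold of 0.05 after Benjamini-Hochberg adjustment across 5261 genes. A difference on this scale understates changes of low genes. For the 4 named genes under that mean (Axin2, Sfrp2, Gata4 and Bmp1) the fit over all listed genes was used. edgeR 4.0.16 and DESeq2 1.42.0 were run on recovered reads. Single genes were also compared by exact 2-sided permutation. The fits were tested on simulated data. Exon lengths came from GENCODE M21 (GRCm38), for 15061 genes. Sensory receptor genes (99, of which 96 had a length) and the 9 high-count predicted genes were chosen after their values were seen.

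The members, 32 gene lists and naming rule were chosen with earlier results of these data known. The rule named Kit, Myh6, Axin2, Sfrp2, Tnnt2, Actc1, Gata4 and Bmp1. It added up to 10 genes per direction by log2 difference among those without overlap, predicted symbols excepted, whose higher group averaged 30 or more, then the 5 smallest p-values and up to 4 genes per list by p. One gene that the rule names is not reported here. Xist, Kdm5d and Col5a1 were added after their values were seen. Alternatives were other scalings, filters and pseudocounts, weights per library, all 11 c-Kit(+) libraries in 1 fit, a replicate block, edgeR, DESeq2 and each library left out.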

Additional observations from a re-analysis of the deposited data

How the results depend on the processing

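The count of called genes was 0 under every alternative run except weights per library, which called 522 genes (244 higher and 278 lower). That fit gave vehicle replicate 1 a weight of 28.5 and vehicle replicates 2 and 3 weights of 0.105 and 0.125, and its weights did not fully converge. With the replicate number as a replicate block 0 genes were called, and 9 had an unadjusted limma p under 0.05. Deviations of libraries with the same number correlated at -0.22, -0.65 and -0.01, and those with different numbers at -0.50 to 0.59. Deviations from the mean of 3 libraries depend on one another, so this check cannot decide whether the numbers pair the libraries. The labels do not say what the numbers mean. Leaving out vehicle replicate 2 gave 366 genes at an unadjusted limma p under 0.05 and leaving out vehicle replicate 3 gave 80, with 0 called in each. The ratio of the median spreads ranged from 1.64 to 4.13 over the libraries left out. Without vehicle replicates 2 and 3, an alternative chosen after seeing the data, the remaining vehicle library was assumed to vary like the others, and 0 genes were called. Signs of log2 differences of some named genes changed, and the cause was not tested. With edgeR Sfrp2 was at -0.32, Actc1 at -0.37 and Xirp2 at 0.11, and with DESeq2 they were at -0.49, -0.49 and 0.020. Xirp2 was at 0.11 under TMM scaling and 0.10 under median centring. With weights per library Actc1 was at -0.26, Gata4 at 0.15 and Tcf7 at -0.082. Without vehicle replicates 2 and 3 Actc1 was at -0.18 and Mef2d at 0.17. Over single libraries left out, the ranges were -0.030 to 1.13 for Sfrp2, -0.99 to 1.23 for Actc1, -1.22 to 0.36 for Gata4, -0.35 to 1.34 for Tcf7, -0.019 to 3.58 for Dcn, -0.45 to 1.67 for Cd3e and -2.20 to 0.73 for Alas2. Reads outside mitochondrial and high-count predicted genes, 112976 in vehicle replicate 3, limit what low genes can show.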
